A study of Caenorhabditis elegans with 15 samples.

Results

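DNA replication and repair genes were followed in whole Caenorhabditis elegans worms, 15 RNA-seq libraries in all, 3 in each of 5 groups. The genes were taken by annotation and not by their level. They are the 40 of 16196 genes in the deposited table whose KEGG annotation lists DNA replication (24 genes), nucleotide excision repair (24 genes) or mismatch repair (13 genes). Of the 40, 12 belong to more than 1 of the 3 pathways and 9 belong to all 3. Names come from the study's supplementary lists, protein annotation or KEGG hits. Of the 40, 1 gene, annotated as a homolog of the TFIIH helicase ERCC-2, carries only the table's ID gene9458.

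The worms were wild type (strain N2) and labelled as L4, the last larval stage. The sucrose-stearic acid-resveratrol group (suc-ste-res) received 400 mM sucrose, stearic acid and resveratrol. The sucrose-stearic acid group (suc-ste) received 400 mM sucrose and stearic acid. The sucrose group (suc) received 400 mM sucrose, and the stearic acid group (ste) received stearic acid. The control group received none of these. The labels give both stearic acid and resveratrol as 500 mg/mL, while the study's methods give the same figure in μg/mL. Per these methods, stearic acid stock was made in ethanol and resveratrol stock in DMSO, and whether the control plates held these solvents is not stated. The study calls the replicates biological, and the labels do not say whether they were separate cultures, so p-values measure the spread between these libraries. Library totals ran between 19433436 and 21400063 counts, with a median of 20319650. The 40 genes together took 0.4045% to 0.5578% of the counts in the treated libraries. Their share was 0.490%, 0.483% and 0.666% in control replicates 1, 2 and 3.

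A cell copies its DNA once per division. The MCM2-7 ring is loaded onto origins and becomes the helicase that opens the double strand. DNA polymerase alpha-primase then lays down RNA-DNA primers, the clamp loader RFC places the sliding clamp, and polymerases delta and epsilon extend the strands, while RPA covers the single strands. Dna2 trims flaps and DNA ligase 1 seals the fragments. Mismatch repair uses MutS homologs to find mispaired bases and MutL homologs to act on them. Nucleotide excision repair finds bulky damage, opens it with TFIIH and cuts it out with endonucleases such as XPF. In the worm, most cells that divide at and after L4 are in the germline, with some divisions left in somatic tissues such as the vulva.

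Control replicate 3 stood apart from the other libraries, and the 40 genes are among those that set it apart. Among the 40 genes, 31 had their highest level of all 15 libraries in control replicate 3, where 23.7% of all 13177 genes had theirs. Levels are given as normalised CPM, that is, counts scaled to library size after TMM normalisation. The ratio of control replicate 3 to the mean of control replicates 1 and 2 had a median of 1.36 over the 40 genes, against 0.954 over all genes. It was 1.56 for MCM2-7, 1.65 for flap processing and ligation, 1.17 for excision repair recognition and incision, and 1.12 for TFIIH. The same library was high in most lists of germline genes, which hold none of the 40. The median ratio was 1.57 for 9 genes of the mitotic germline and germ granules, 1.58 for 17 meiotic genes and 1.68 for 12 oocyte and early embryo genes. For 11 sperm genes it was 1.09, with 6 of them above 1. It was low in somatic lists, at 0.614 for 5 neuronal genes and 0.73 for 6 intestinal genes. The main results against control are therefore also given without this library.

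**Figure D1:**
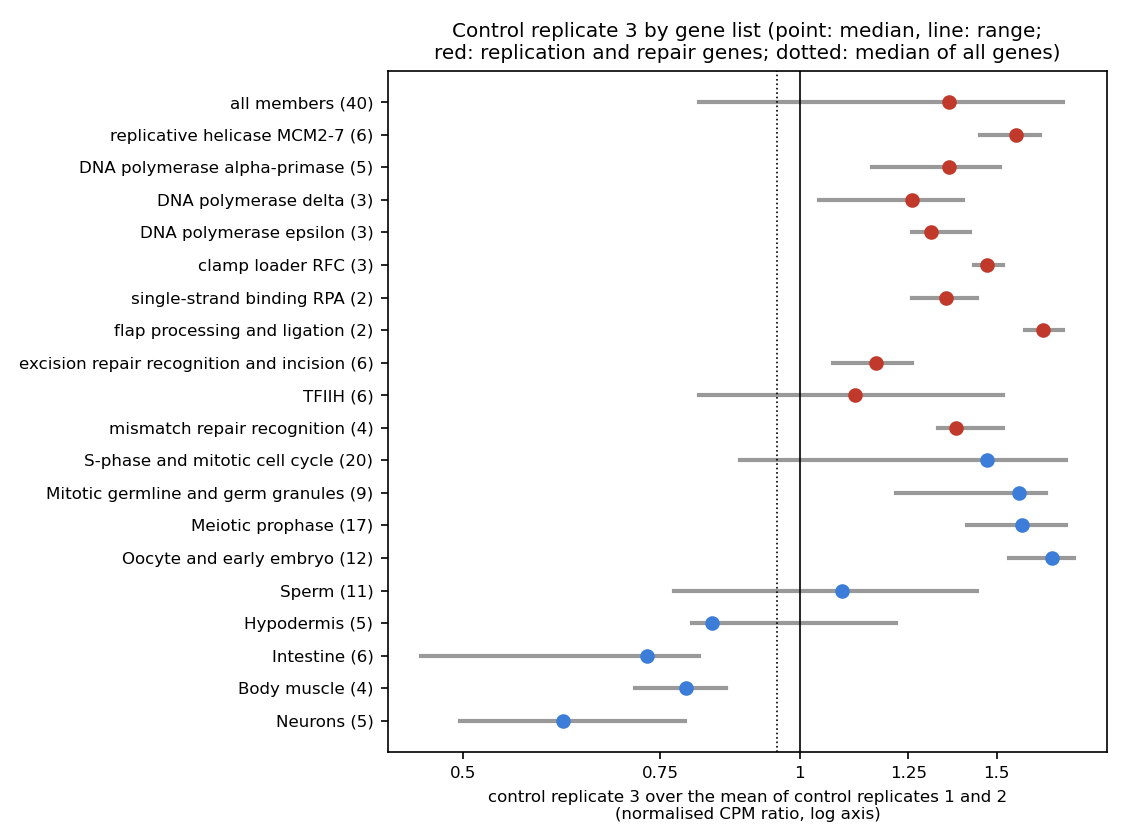
Level in control replicate 3 divided by the mean of control replicates 1 and 2 (normalised CPM, log axis), with the median as a point and the range as a line, for the replication and repair genes by role (red) and for other gene lists (blue); the number of genes is in brackets. MCM2-7 lies at 1.56 and the oocyte list at 1.68, while the neuronal list lies at 0.614 and all genes at 0.954 (dotted line).

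In the comparison of stearic acid with control, 6 of the 40 genes fell and 1 rose. The genes that fell were mcm-2, mcm-3, mcm-4 and mcm-5 of the replicative helicase, rpa-2, the middle subunit of the single-strand binding protein, and msh-2, the MutS homolog that pairs with MSH-6 to find mismatches. The gene that rose was xpf-1, the excision repair endonuclease subunit. A gene counted as changed at an adjusted p of 0.05 or less in edgeR's quasi-likelihood test, adjusted over all genes tested. All 40 genes passed the filter on low counts. By this rule 22.6% of all genes tested changed, and 11% of all genes tested were lower, so the 7 of 40 genes are near the share over all genes. No gene of the 40 reached a change of at least 2-fold in counts as well, which 7.88% of all genes did. Of the 40 fold changes 37 were negative, and their median was -0.22 on the log2 scale, against -0.03 over all genes.

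mcm-2 (chromosome II, 12001517 to 12006625 on WBcel235) had 121, 131 and 103 CPM in stearic acid libraries, against 158, 151 and 228 CPM in control libraries. All 3 stearic acid values lay below all 3 control values. The fall was 0.61 ± 0.16 on the log2 scale (SE, adjusted p = 0.0212). mcm-5 (chromosome III, 4288264 to 4291266) had 118, 119 and 103 CPM in stearic acid libraries, against 144, 144 and 233 CPM in control libraries. It fell by 0.62 ± 0.18 (adjusted p = 0.0282), and its groups did not overlap. The values of mcm-3 were 106, 111 and 97.2 CPM after stearic acid, against 134, 127 and 215 CPM in controls. Its fall was 0.61 ± 0.18 (adjusted p = 0.0323). For mcm-4 they were 123, 123 and 103 CPM after stearic acid, against 144, 136 and 211 CPM in controls. It fell by 0.50 ± 0.17 (adjusted p = 0.0471). The last pair of the ring gave smaller or more variable differences. mcm-6 had 195, 188 and 168 CPM after stearic acid, against 215, 206 and 306 CPM in controls, a log2 difference of -0.41 ± 0.15 (adjusted p = 0.0712). mcm-7 had 141, 165 and 128 CPM after stearic acid, against 182, 165 and 283 CPM in controls, a log2 difference of -0.55 ± 0.19 (adjusted p = 0.0527). In each of the 6 genes replicate 3 was the highest control, and the control values spread more widely. mcm-5 averaged 113 ± 9.08 CPM in stearic acid libraries and 173 ± 51.3 CPM in control libraries (SD, n = 3 each).

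**Figure D2:**
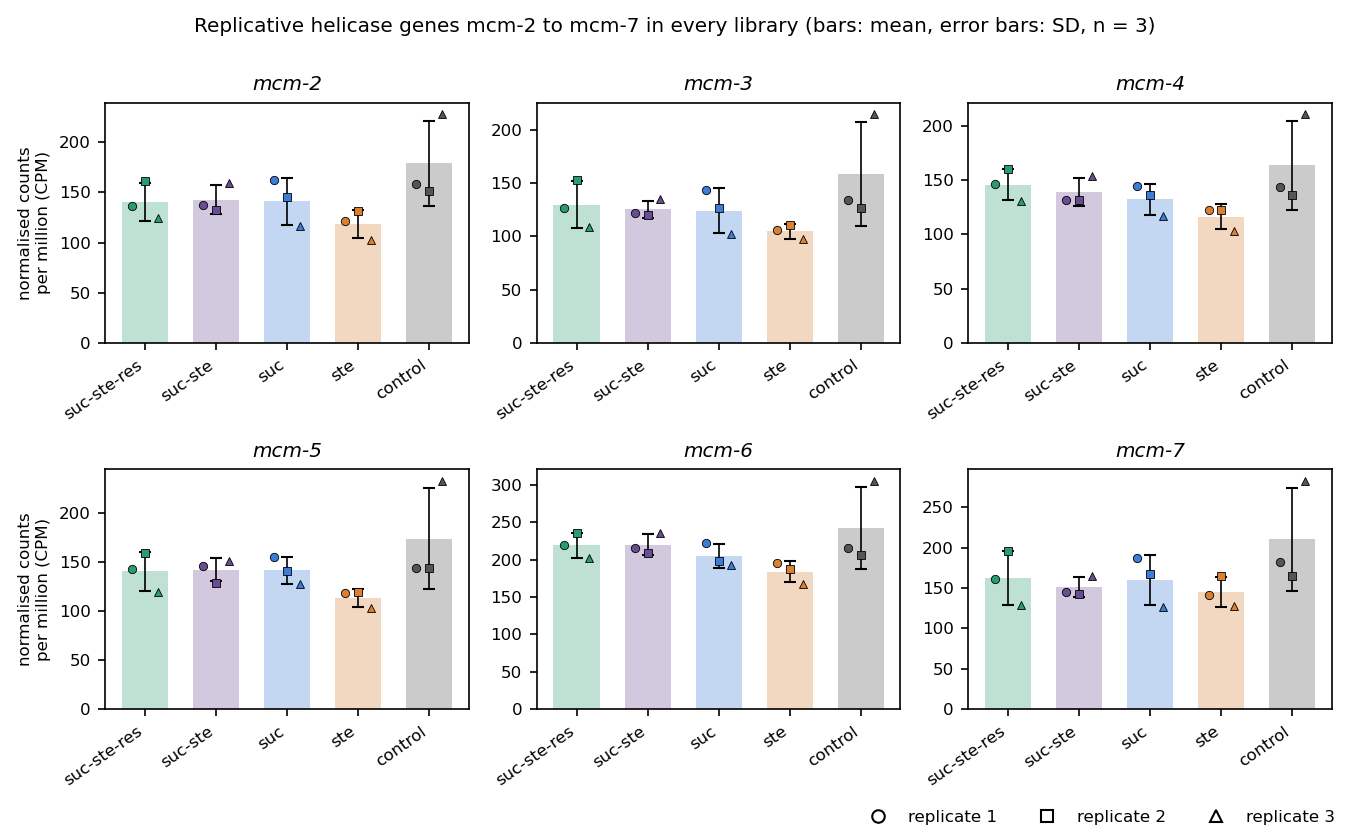
Level of mcm-2 to mcm-7 (normalised CPM, vertical axis) in the 3 libraries of each group, with bars at the mean and error bars of 1 SD. The stearic acid libraries of mcm-5 sit between 103 and 119 CPM, below all 3 controls (144, 144 and 233 CPM), and control replicate 3 (grey triangle) is the highest value in every panel.

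Without control replicate 3, mcm-2, mcm-3 and mcm-5 still fell, by 0.39 (adjusted p = 0.0151), 0.32 (adjusted p = 0.0193) and 0.34 (adjusted p = 0.016) on the log2 scale. rpa-2 fell by 0.32 (adjusted p = 0.0296) and msh-2 fell by 0.31 (adjusted p = 0.0223), so 5 genes fell and xpf-1 rose. By the same rule 26.5% of all genes then changed. The median of the 40 genes moved to -0.10 and 29 fold changes stayed negative. The calls rest on all 3 stearic acid libraries as well. Without any 1 of them, none of the 40 genes changed, while 34 to 39 of the 40 fold changes were negative. Leaving out control replicate 1 or 2 gave 12 genes that fell and none that rose. The share over all genes in those fits is not given here, so this count is not read as particular to the 40 genes. Over all genes tested, leaving out 1 library of either group gave 1224 to 3441 changed genes, against 2889 with all libraries. On the deposited FPKM values, limma called none of the 6 genes that fell, with log2 differences between -0.58 and -0.43 and adjusted p between 0.0975 and 0.187.

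Among the other replication factors, the test was passed only by rpa-2 with all controls, and by it alone without control replicate 3. rpa-2 had 85.7, 72.8 and 74.2 CPM in stearic acid libraries, against 101.4, 92.5 and 122 CPM in control libraries. The groups did not overlap and the fall was 0.45 ± 0.14 (adjusted p = 0.0367). Its partner rpa-1, the large subunit, had a log2 difference of -0.33. For the 5 polymerase alpha-primase genes the differences ran between -0.42 for pri-1, a primase small subunit, and -0.02 for T24C4.5. pole-1, the catalytic subunit of polymerase epsilon, had a difference of -0.46 ± 0.16 (adjusted p = 0.0605), and rfc-4 of the clamp loader had -0.48 ± 0.16 (adjusted p = 0.0531). The difference was -0.26 for pole-1, -0.25 for rfc-4, -0.25 for pri-1 and -0.12 for rpa-1 without control replicate 3. The 3 polymerase delta genes lay between -0.20 and -0.17, and the excision repair and TFIIH roles had medians of -0.10 and -0.06. Over all 40 genes, 17 had stearic acid libraries that lay wholly below the controls and 1 had them above, where 21.1% and 22.7% of all genes did.

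**Figure D3:**
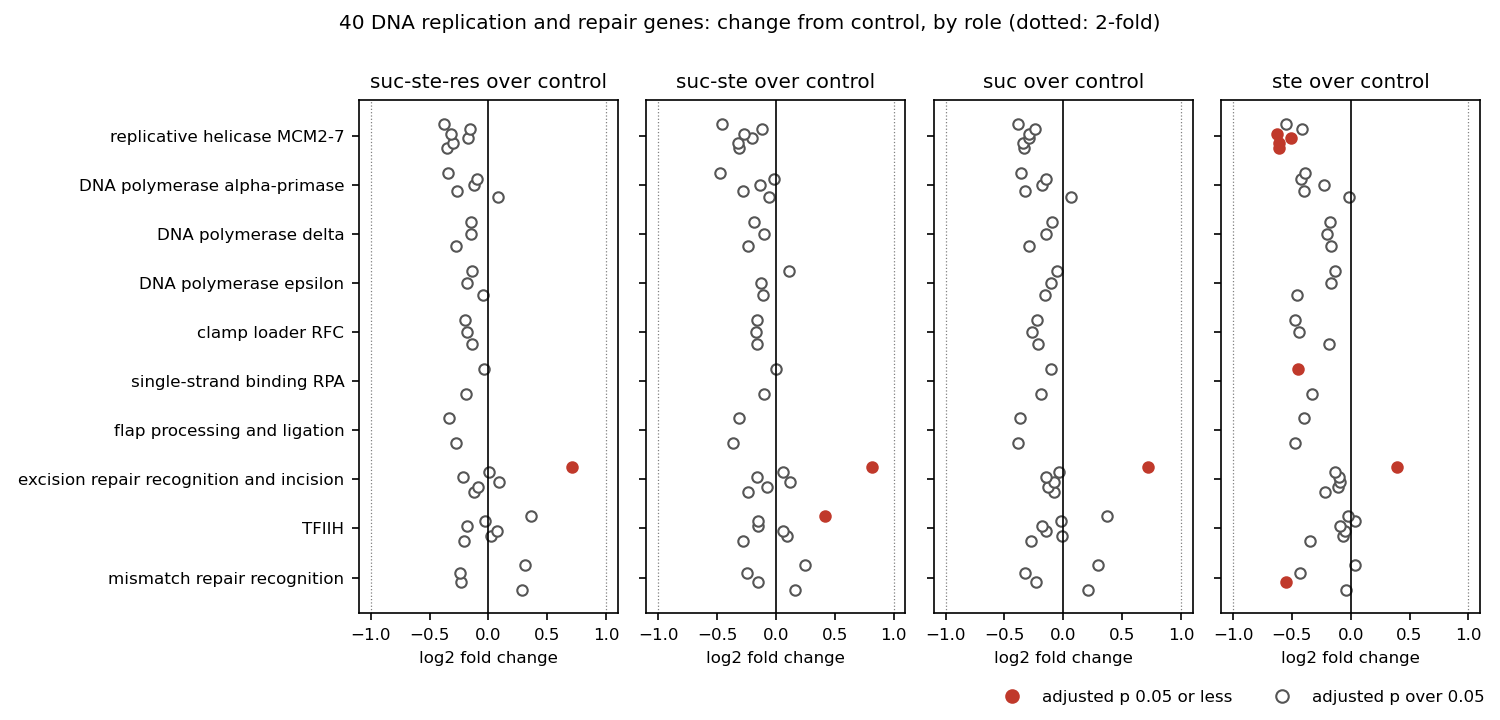
Log2 fold change of each of the 40 genes over control, in a panel for each treatment, with roles down the page; filled red points passed an adjusted p of 0.05 and the dotted lines mark 2-fold. MCM2-7 lies between -0.62 and -0.41 in the stearic acid panel, and the red point farthest to the right in each panel is xpf-1 (0.40 to 0.82), with mnat-1 (0.42) also red in the sucrose-stearic acid panel.

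Genes that work beside the 40 in S phase had stearic acid values on the same side. Of 20 S-phase and mitotic cell cycle genes 6 fell and none rose, with a median of -0.42, where 11% of all genes were lower. When control replicate 3 was left out, 5 of the 20 fell and the median was -0.18. Of 10 genes of origin licensing and firing 2 fell, and of 5 genes of nucleotide supply 2 fell. For DNA damage checkpoint genes 1 of 8 tested fell, and for the homologous recombination list none of 6 changed. These counts were the same without control replicate 3. Of 17 meiotic genes 3 fell, of 9 mitotic germline genes 2 fell and of 12 oocyte genes 5 fell, with no gene of these lists higher, and without control replicate 3 the counts were again 3, 2 and 5. Their medians were -0.45, -0.43 and -0.47 with all controls, and -0.18, -0.15 and -0.16 without that library. Of 11 sperm genes 3 fell and none rose with all controls, with a median of -0.32. Among somatic lists, 2 of 5 neuronal genes rose (median 0.41, or 0.30 without control replicate 3), 2 of 6 intestinal genes rose and 1 fell, and 1 of 5 hypodermal and none of 4 body muscle genes fell (2 and 1 without that library). No gene of these germline lists was at 0 in any library. In whole worms, fewer cells of a type and less RNA per cell cannot be told apart.

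The summed level of MCM2-7 followed the germline lists other than sperm within groups. In each of the 5 groups, the library with the highest summed MCM2-7 level also had the highest summed level of the S-phase, mitotic germline, meiotic and oocyte lists. This held in 2 of 5 groups for the sperm list and in none for the neuronal list. MCM2-7 was also set against the S-phase, mitotic germline, meiotic and oocyte sums, and not against the sperm sum. These ratios were chosen after the values were seen and are given with no test. MCM2-7 over the mitotic germline list was 0.72, 0.689 and 0.662 in stearic acid libraries, against 0.766, 0.745 and 0.769 in controls. The ratio to the S-phase list was 0.533 to 0.574 after stearic acid, against 0.58 to 0.627 in controls. For the meiotic list it was 1.46 to 1.57 after stearic acid, against 1.59 to 1.71 in controls, and for the oocyte list 0.17 to 0.181 after stearic acid, against 0.182 to 0.203 in controls. In each case the stearic acid libraries lay below the controls, by a narrow margin for all but the mitotic germline list. In sucrose, suc-ste and suc-ste-res libraries the mitotic germline ratio lay above the controls, at 0.773 to 0.816, 0.817 to 0.845 and 0.801 to 0.827. The oocyte ratio was 0.194 to 0.218, 0.239 to 0.251 and 0.207 to 0.248 in the same order. The S-phase ratio was 0.609 to 0.611, 0.625 to 0.649 and 0.628 to 0.654. The meiotic ratio was 1.57 to 1.75 in sucrose, 1.47 to 1.6 in suc-ste and 1.53 to 1.59 in suc-ste-res libraries. The summed oocyte level itself was 4130 to 4820 CPM after stearic acid and 4810 to 8100 CPM in controls, and its part in the MCM2-7 result was not tested further.

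xpf-1 was the gene of the 40 that rose in every comparison with control. XPF is the catalytic subunit of the endonuclease that cuts the damaged strand 5′ of a lesion. xpf-1 had 350, 332 and 402 CPM in suc-ste-res libraries, 406, 370 and 377 CPM in suc-ste libraries and 323, 334 and 429 CPM in sucrose libraries. It had 304, 289 and 284 CPM in stearic acid libraries, and 211, 208 and 243 CPM in control libraries. No treated library overlapped the controls. The rise over control was 0.71 ± 0.12 (log2 ± SE, adjusted p = 0.00202) in suc-ste-res, 0.82 ± 0.10 (adjusted p = 0.000309) in suc-ste, 0.72 ± 0.13 (adjusted p = 0.00523) in sucrose and 0.40 ± 0.11 (adjusted p = 0.0261) in stearic acid. These 4 comparisons share the control libraries. On FPKM values the rise after stearic acid was 0.69 on the log2(FPKM + 1) scale (limma, adjusted p = 0.00566). Without control replicate 3 the rise in counts was 0.76, 0.89, 0.78 and 0.48 in the same order, with adjusted p of 0.00033, 6.42e-05, 0.00318 and 0.00166. Between treatments, xpf-1 was higher in suc-ste than in stearic acid by 0.41 ± 0.08 (adjusted p = 0.00186). For sucrose over stearic acid the difference was 0.31 ± 0.11 (adjusted p = 0.0691).

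The locus of xpf-1 holds a second gene. xpf-1 lies on chromosome II, 11696171 to 11705371, on the plus strand of WBcel235. inos-1, annotated as a myo-inositol-1-phosphate synthase, lies inside this span at 11698317 to 11700300 on the minus strand, in an intron, and shares no exon base with xpf-1. How the counts treated strand and nested genes is not stated. xpf-1 had the highest FPKM of the 40 genes, with a median of 290, and its count divided by its FPKM corresponds to 1172 bases, where its exons add up to 2899 bases. The count of xpf-1 over that of inos-1 was 1.53 to 1.83 in suc-ste-res, 1.75 to 2.08 in suc-ste and 1.68 to 1.93 in sucrose libraries. It was 1.1 to 1.24 in stearic acid libraries and 0.981 to 1.24 in controls. inos-1 itself had a log2 difference from control of 0.05 ± 0.12 in suc-ste-res, -0.01 ± 0.09 in suc-ste, -0.02 ± 0.11 in sucrose and 0.26 ± 0.11 in stearic acid (adjusted p between 0.0855 and 0.954). In the sucrose groups, then, xpf-1 rose while inos-1 had values near those of controls. In stearic acid libraries the count ratio of the genes overlapped the controls. Whether reads from inos-1 enter the count of xpf-1 was not tested.

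**Figure D4:**
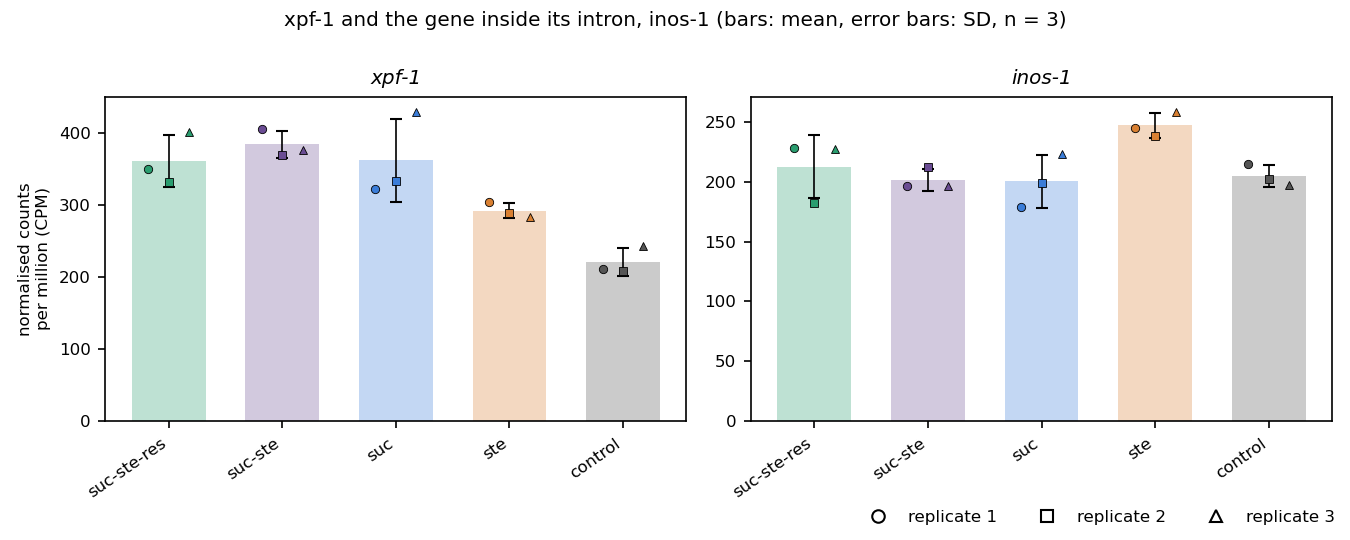
Level of xpf-1 and of inos-1, the gene inside its intron, in every library (normalised CPM, vertical axis; bars are means, error bars 1 SD). xpf-1 lies between 284 and 429 CPM in treated libraries, above its controls (208 to 243 CPM), while inos-1 in the 3 sucrose-containing groups lies between 179 and 228 CPM, around its controls (197 to 215 CPM).

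In the comparison of sucrose with control, xpf-1 was the only gene of the 40 to pass the test, while 18.4% of all genes did (9.63% higher). None of the 40 reached 2-fold in counts, where 9.18% of all genes did. The mean FPKM of xpf-1 was 330 ± 67.8 in sucrose and 160 ± 11.1 in control libraries (SD), more than 2-fold. The other fold changes leaned down, with 35 of 40 negative and a median of -0.17. For MCM2-7 they ran between -0.39 for mcm-7 and -0.24 for mcm-6, with adjusted p between 0.244 and 0.348. They ran between -0.14 for mcm-2 and -0.03 for mcm-5 without control replicate 3. mcm-2 had 162, 145 and 116 CPM in sucrose libraries, against 158, 151 and 228 CPM in controls. The groups overlapped, and the same held for the other 5 genes of the ring. mcm-7 had 187, 167 and 126 CPM after sucrose, against 182, 165 and 283 CPM in controls. Without control replicate 3 the median of the 40 genes was -0.03, with 26 negative, and xpf-1, mlh-1 and pms-2 rose. By the same rule 20.8% of all genes changed without that library.

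mlh-1 and pms-2 encode the MutL homologs of mismatch repair, which act as a pair. mlh-1 had 530, 533 and 563 CPM in sucrose libraries, against 454, 396 and 564 CPM in controls. pms-2 had 57.3, 58.6 and 64.6 CPM in sucrose libraries, against 42.5, 45.9 and 60 CPM in controls. In both genes control replicate 3 lay with the sucrose libraries. The differences were 0.21 ± 0.14 (adjusted p = 0.319) for mlh-1 and 0.29 ± 0.15 (adjusted p = 0.223) for pms-2. Without control replicate 3 they were 0.35 ± 0.09 (adjusted p = 0.0259) and 0.44 ± 0.09 (adjusted p = 0.0121). The MutS homologs msh-2 and msh-6 had negative differences after sucrose that did not pass the test. msh-2 had 76.4, 65.5 and 58 CPM after sucrose, against 67.9, 66.1 and 102 CPM in controls, a difference of -0.23 (adjusted p = 0.439). msh-6 had 114, 94.6 and 96.3 CPM after sucrose, against 112, 114 and 159 CPM in controls, a difference of -0.33 (adjusted p = 0.196).

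After stearic acid msh-2 alone of these genes passed the test. msh-2 had 56.2, 54.8 and 51.1 CPM in stearic acid libraries, against 67.9, 66.1 and 102 CPM in controls, and fell by 0.55 ± 0.17 (adjusted p = 0.036). msh-6 had 96.4, 102 and 88.8 CPM after stearic acid, against 112, 114 and 159 CPM in controls, a difference of -0.43 (adjusted p = 0.0562). mlh-1 had 436, 525 and 426 CPM after stearic acid, against 454, 396 and 564 CPM in controls, a difference of -0.04 (adjusted p = 0.86). pms-2 had 49.7, 54.6 and 48.9 CPM after stearic acid, against 42.5, 45.9 and 60 CPM in controls, a difference of 0.03 (adjusted p = 0.884). The stearic acid values of both MutL homologs overlapped the controls. Without control replicate 3 the difference was -0.24 for msh-6 (adjusted p = 0.0714), 0.12 for mlh-1 and 0.21 for pms-2, and the difference between the MutS and MutL homologs was not tested.

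**Figure D5:**
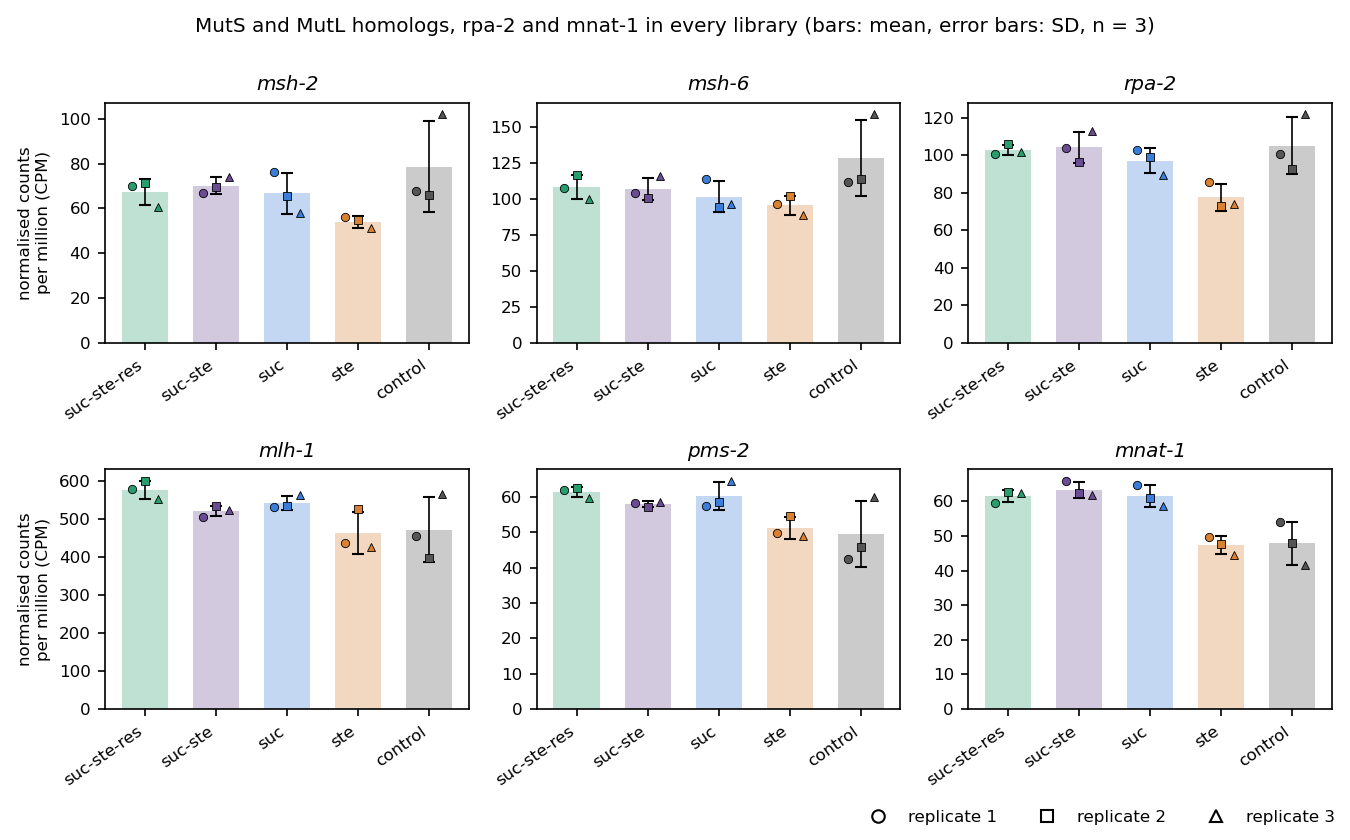
Level of msh-2, msh-6, rpa-2, mlh-1, pms-2 and mnat-1 in every library (normalised CPM, vertical axis; bars are means, error bars 1 SD). msh-2 and rpa-2 are lowest in the stearic acid group (51.1 to 56.2 and 72.8 to 85.7 CPM), and mnat-1 lies between 58.6 and 66 CPM in the 3 sucrose-containing groups, above stearic acid and control libraries (41.5 to 54 CPM).

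In the comparison of sucrose-stearic acid with control, xpf-1 and mnat-1 rose and no gene of the 40 fell, while 19.9% of all genes changed (11% higher). MNAT1 assembles the CDK-activating kinase that is part of TFIIH. mnat-1 had 66, 62.3 and 61.7 CPM in suc-ste libraries, against 54, 48.1 and 41.5 CPM in controls. The groups did not overlap and the rise was 0.42 ± 0.13 (adjusted p = 0.0494), or 0.33 ± 0.09 without control replicate 3 (adjusted p = 0.0304). It passed in 7 of 15 alternatives, with adjusted p between 0.00472 and 0.192. mnat-1 was the only gene of the 40 that was lower in control replicate 3 than in the mean of the other 2 controls. Its annotated exons share bases with F53G2.12 on the same strand. For sucrose alone the difference of mnat-1 from control was 0.37 ± 0.13 (adjusted p = 0.0738), and for suc-ste-res it was 0.36 ± 0.13 (adjusted p = 0.0786). For stearic acid alone it was -0.03 ± 0.14.

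Whether replicate numbers pair libraries is not stated in the labels. Libraries of the same number deviated together in these 2 groups, but some libraries of unlike number did so as well. Replicate 2 of suc-ste had a correlation of 0.229 with control replicate 1 and 0.213 with control replicate 2. With the replicate number as a block, a choice made from these same data, 6 of the 40 genes changed, where 29.3% of all genes did. In that fit xpf-1 and mnat-1 rose, and mcm-2, mcm-7, the primase large subunit pri-2 and the flap nuclease dna-2 fell by 0.30 (adjusted p = 0.0334), 0.42 (adjusted p = 0.0129), 0.46 (adjusted p = 0.00485) and 0.34 (adjusted p = 0.0428) on the log2 scale.

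The MCM2-7 genes had 6 negative differences after co-treatment, between -0.46 for mcm-7 and -0.12 for mcm-6, and none passed the test without the block. Leaving out control replicate 3 gave 4 negative and 2 positive differences, with a median of -0.02. mcm-2 had 137, 132 and 159 CPM in suc-ste libraries, against 158, 151 and 228 CPM in controls. mcm-3 had 122, 120 and 135 CPM, mcm-4 had 132, 132 and 154 CPM, mcm-5 had 146, 129 and 151 CPM, mcm-6 had 216, 209 and 236 CPM and mcm-7 had 145, 143 and 165 CPM in suc-ste libraries. Over the 40 genes the median was -0.15 with 30 negative, and without control replicate 3 it was 0.02 with 17 negative. Without that library 4 genes rose, which were xpf-1, mnat-1, mlh-1 (0.31, adjusted p = 0.0322) and pms-2 (0.41, adjusted p = 0.00745), where 24.6% of all genes changed. In counts all 40 genes stayed within 2-fold of control, a change that 9.57% of all genes passed. On mean FPKM xpf-1 did not, at 328 ± 18.2 in suc-ste and 160 ± 11.1 in control libraries (SD).

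Adding resveratrol to the co-treatment changed none of the 40 genes in edgeR's test. Over all genes tested, 0.0159% changed, which is 2 genes. Of the 40 genes 21 were higher and 19 lower, and the fold changes ran between -0.23 for pole-4 and 0.16 for T24C4.5, with standard errors of 0.06 to 0.17. At an unadjusted p of 0.05, 2 of the 40 genes and 553 of the 12591 genes tested would pass. DESeq2 and limma on log2(FPKM + 1) also called none of the 40. mcm-5 had 143, 159 and 119 CPM with resveratrol, against 146, 129 and 151 CPM without it. mlh-1 had 577, 600 and 551 CPM with resveratrol, against 505, 533 and 523 CPM without it, a difference of 0.15 ± 0.07 (adjusted p = 0.999). Without replicate 3 of the suc-ste group, 34 of the 40 differences were positive, so even the direction of small differences here turned on 1 library.

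In the comparison of suc-ste-res with control, xpf-1 alone rose and none fell, while 17.7% of all genes changed (9.24% higher). None of the 40 reached 2-fold in counts, where 9.26% of all genes did. Without control replicate 3, mlh-1 (0.41, adjusted p = 0.0151) and pms-2 (0.45, adjusted p = 0.00835) rose as well, where 22.1% of all genes changed. pms-2 had 62, 62.4 and 59.7 CPM in suc-ste-res libraries, against 42.5, 45.9 and 60 CPM in controls. The median of the 40 genes was -0.15 with all controls and -0.01 without replicate 3.

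The treatments were also set directly against each other, where control replicate 3 plays no part. Between suc-ste and stearic acid, 11 of the 40 genes were higher in suc-ste and none lower, while 34.1% of all genes changed (16% higher). The 11 genes were mcm-3, mcm-4, mcm-5 and mcm-6, pri-1, pole-1, rfc-4, rpa-2, msh-2, xpf-1 and mnat-1. The median of the 40 genes was 0.16, with 32 positive, against 0.01 over all genes. mcm-5 had 146, 129 and 151 CPM in suc-ste libraries, against 118, 119 and 103 CPM in stearic acid libraries, and rose by 0.33 ± 0.09 (adjusted p = 0.0157). rpa-2 had 104, 96.4 and 113 CPM in suc-ste libraries, against 85.7, 72.8 and 74.2 CPM in stearic acid libraries, and rose by 0.44 ± 0.10 (adjusted p = 0.00451). msh-2 had 66.7, 69.4 and 74.1 CPM in suc-ste libraries, against 56.2, 54.8 and 51.1 CPM in stearic acid libraries. It rose by 0.39 ± 0.09 (adjusted p = 0.00519), and none of these genes overlapped between the groups. Over the 40 genes, 16 lay wholly higher in suc-ste and 1 wholly lower, where 24% and 24.5% of all genes did. The mitotic germline list had a median of -0.01 here with none of 9 genes changed, and the oocyte list had 4 of 12 genes lower. Of 17 meiotic genes 5 were higher. The count of 11 was 4 without stearic acid replicate 3 and 5 without suc-ste replicate 1 or 3. Changed genes over the whole table numbered 3228 to 4121 when 1 library was left out, against 4334 with all libraries.

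Between sucrose and stearic acid, mcm-5, rpa-2 and mnat-1 were higher in sucrose and none of the 40 was lower, while 24.3% of all genes changed (11% higher). mnat-1 had 64.8, 61 and 58.6 CPM in sucrose libraries, against 49.6, 47.8 and 44.5 CPM in stearic acid libraries, a rise of 0.38 ± 0.09 (adjusted p = 0.00993). rpa-2 had 103, 99.2 and 89.6 CPM in sucrose libraries, against 85.7, 72.8 and 74.2 CPM in stearic acid libraries, a rise of 0.33 ± 0.09 (adjusted p = 0.0313). mcm-5 had 155, 141 and 128 CPM in sucrose libraries, against 118, 119 and 103 CPM in stearic acid libraries, a rise of 0.31 ± 0.10 (adjusted p = 0.041). The groups did not overlap in any of the 3 genes. Over the 40 genes, 8 lay wholly higher in sucrose and 1 wholly lower, where 19.7% and 21% of all genes did. Without sucrose replicate 3, the library with the lowest summed MCM2-7 level of its group, 8 genes rose. Without stearic acid replicate 3 none passed, and without sucrose replicate 2 only 1 did. Changed genes over the whole table numbered 2047 to 3745 when 1 library was left out, against 3084 with all libraries. Between suc-ste and sucrose none of the 40 genes changed, where 0.445% of all genes did. Here 2 of the 40 and 1619 of the 12582 genes tested passed an unadjusted p of 0.05, DESeq2 and limma called none, and the differences ran between -0.16 for csb-1 and 0.20 for ddb-1.

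The interaction of sucrose and stearic acid, that is, how far the log2 change after co-treatment departs from the added changes of sucrose alone and stearic acid alone, passed the test for rpa-2 alone of the 40 genes. By this test 15.6% of all genes were called (7.05% positive). rpa-2 had an interaction of 0.53 ± 0.16 (adjusted p = 0.0437), with differences from control of -0.11 after sucrose, -0.45 after stearic acid and 0.0035 after both. For MCM2-7 the interaction ran between 0.44 and 0.60, with adjusted p between 0.0784 and 0.264. msh-2 had 0.60 ± 0.21 (adjusted p = 0.0703). Of the 40 genes 35 had a positive interaction and the median was 0.25, against -0.02 over all genes. The control libraries enter this term, and without control replicate 3 none of the 40 genes passed (rpa-2 at 0.42, adjusted p = 0.0533). Without control replicate 2, 5 genes passed. Leaving out sucrose replicate 2 or 3, stearic acid replicate 2 or 3, or suc-ste replicate 1 or 3 also left none. Without control replicate 1, 3 genes passed, and without sucrose replicate 1, 2 did. Calls over all genes ran from 1296 to 2278 when 1 library was left out, against 2048 with all libraries.

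Among themselves the 40 genes covered a wide range of levels. Per length, the median FPKM over the libraries ran from 4.55 for csb-1, which acts where transcription is blocked by damage, up to 290 for xpf-1. The next highest were rbx-1, the RING subunit of cullin ligases (221), gtf-2H5, a small TFIIH subunit (139), rpa-2 (135) and mlh-1 (121). The 6 MCM genes lay close together, between 55.5 and 76.9 FPKM. For 5 genes the length implied by count and FPKM was at least 1.5 times the annotated exon length. These were pold-2, gtf-2H5, cdk-7, mlh-1 and T24C4.5, so their FPKM is low for their count. For xpf-1 and 1 other gene, pole-4, it was under 0.5 times the exon length, so their FPKM is high for their count. The genes also differed in how far they moved over the 15 libraries. The ratio of the highest to the lowest CPM was 1.82 to 2.26 for the MCM genes, 2 for msh-2 and 2.06 for xpf-1. It was 1.24 for pold-2, 1.23 for gtf-2H1 and 1.22 for T24C4.5.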

How the data were processed

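Total RNA of whole worms was sequenced after TruSeq library preparation. Per the study's methods, the authors filtered the reads, mapped them to WBcel235 with TopHat and made FPKM with Cufflinks. The deposited count of each gene was not normalised by the authors, and the deposited FPKM had been scaled to length and library size. The counting tool and its use of strand are not given in the sources used here. Columns with the authors' own fold changes and FDR were not used.

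Genes were chosen by KEGG annotation. The 40 genes, their roles and the other gene lists were chosen with earlier results of these data known. Genes with values in every sample were all MCM2-7, MutS and MutL homologs and, in each comparison with control, up to 8 changed genes with the largest fold change. Those of rpa-2 and mnat-1 between treatments were added after seeing them. The sliding clamp PCNA was not analysed here. Names came from the study's supplementary lists, then protein annotation, then the KEGG hit, each matched to RefSeq (15192 of 16196 IDs). Genes of the other lists that were not found by name were left out, so several lists are incomplete. Found were 9 of 14 mitotic germline, 17 of 21 meiotic and 11 of 14 sperm genes. Of the origin licensing and firing genes 10 of 21 were found, and of the checkpoint genes 9 of 15. Coordinates came from the WBcel235 annotation.

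Counts were tested with edgeR 4.0.16 (R 4.3.3), using TMM scaling, filterByExpr, a quasi-likelihood fit of the 6 libraries compared (12 for the interaction) and Benjamini-Hochberg adjustment over all genes tested. An exact permutation test of 3 against 3 cannot go below p = 0.1 and was not used. Alternatives were DESeq2 1.42.0 (Wald test), limma 3.58.1 on log2(FPKM + 1) or log2(FPKM + 0.1) for a mean FPKM of at least 0.5, no filter, RLE scaling, all 15 libraries in 1 fit, an adjusted p of 0.01, a 2-fold minimum, a replicate block and leaving out each library. Libraries of the same number deviated together in all 3 pairs of suc-ste and control (correlations of 0.135, 0.213 and 0.382). The fit with these numbers, which the labels share between groups, as a block is therefore given gene by gene in that comparison alone. Such correlations cannot show whether the numbers pair the samples. The scripts were tested on simulated counts with 1 fixed spread and no library that stands apart. That test checks the code and cannot speak for a group such as these controls. With these depths, precision is set by the spread between libraries more than by counting.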

Additional observations from a re-analysis of the deposited data

Results flagged for a closer look

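The interaction of sucrose and stearic acid for rpa-2 was 0.526 on the log2 scale. In this fit alone, the difference with stearic acid was not the same in worms with and without sucrose. Of the 40 genes only rpa-2 passed this test, where 15.6% of all genes did. Stearic acid gave a difference of 0.10 ± 0.10 in the presence of sucrose (suc-ste over sucrose, adjusted p = 0.704 in edgeR's test) and -0.45 ± 0.14 in its absence (stearic acid over control, adjusted p = 0.0367). The adjusted p of the interaction was 0.0437, and over its alternatives it ran between 0.0246 and 0.106, above 0.05 in 9 of 15 alternatives. It was above 0.05 without control replicate 3 (0.0533), the library in which 31 of the 40 genes had their highest level. The part of that library in the interaction was not tested beyond leaving it out.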

How the results depend on the processing

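The number of replication and repair genes that changed moved with the settings. For stearic acid against control, 7 genes changed in the fit of the report. DESeq2 gave 11, limma gave 1 with either pseudocount (with 1636 genes called over the whole table, against 2889 in the report), and all 15 libraries in 1 fit gave 16. For suc-ste against stearic acid the count was 11, with 6 by limma with either pseudocount and 3 in the fit of all 15 libraries. The fit of all 15 libraries gave 2 genes for sucrose against control and 3 for suc-ste-res against control, where the report has 1 each. At an adjusted p of 0.01 or less, 0 genes were left for stearic acid against control, 1 for suc-ste against control, 1 for sucrose against stearic acid and 4 for suc-ste against stearic acid. In counts, a 2-fold minimum left 0 in every pairwise comparison. RLE scaling and leaving out the filter kept each count within 1 of the report. For these settings, a count over all genes is given only for limma in stearic acid against control. The other shifts are therefore not read as particular to the replication and repair genes. The cause of these shifts was not tested.

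Leaving out 1 library gave 1 to 3 changed genes for sucrose against control, 0 to 12 for stearic acid against control, 1 to 4 for suc-ste against control and 1 to 3 for suc-ste-res against control. The range was 0 to 8 for sucrose against stearic acid, 4 to 12 for suc-ste against stearic acid and 0 to 5 for the interaction. It stayed at 0 for suc-ste-res against suc-ste and for suc-ste against sucrose. Over all genes, leaving out 1 library gave 1413 to 2689, 1224 to 3441, 1631 to 3183 and 1548 to 2857 called genes for the comparisons with control in the same order, 2047 to 3745 for sucrose against stearic acid, 3228 to 4121 for suc-ste against stearic acid and 1296 to 2278 for the interaction. No fold change of a named gene that had passed the test turned its sign in any of its 15 alternatives. xpf-1 stayed past the threshold in 14 of 15 alternatives for sucrose, suc-ste and suc-ste-res against control, the exception being the 2-fold minimum, but in 7 of 15 for stearic acid.

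Replicate numbers are shared between groups in the labels. Libraries of the same number deviated together in 7 of 30 pairs (correlation over 0.1), with correlations between -0.412 and 0.382. All 3 pairs did so for suc-ste and control alone. Libraries of unlike number also correlated, such as suc-ste-res replicate 2 with control replicate 3 (0.433). The correlations therefore cannot show whether the numbers pair the samples in this or any other comparison. With a replicate block, 6 genes changed for suc-ste against control (xpf-1 and mnat-1 among them, and no other call of this comparison changed beyond the 4 falls given in the report), 7 for suc-ste against stearic acid and 0 for the interaction, and the other counts stayed within 1.5 times. The planned search of promoters for a motif was not run, since no promoter sequence was used here. The main limit is 3 libraries a group, of which 1 control stands apart. Standard errors against control had a median of 0.14 to 0.16 on the log2 scale, so differences of the size seen for most of the 40 genes were not detectable.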
